A study of Mus musculus with 12 samples.

Results

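The Fc gamma receptor genes are a set of 7 genes matched by their GENCODE symbol among the 54446 genes counted in every library: the activating receptors *Fcgr1*, *Fcgr3* and *Fcgr4*, the inhibitory receptor *Fcgr2b*, the signalling chain *Fcer1g*, the kinase *Syk* and the phosphatase *Inpp5d*. They were followed in CD11b+ myeloid cells that had been isolated with a magnetic selection kit from MC38 tumors, which grow from a colon carcinoma line of the mouse. All mice were WT, which in the study's methods are *Ythdf2* fl/fl animals without a Cre on the C57BL/6J background, so no group lacked YTHDF2. The Ctrl group was unirradiated and the IR group had received 20 Gy to the tumor 3 days before the cells were collected. The study's methods give male and female mice of 8 to 10 weeks for its experiments in general. Each condition had 3 pools of cells from several mice. Every pool gave an Input library, which measures transcript abundance, and an IP library of the RNA recovered with an antibody against the m6A reader YTHDF2, so that there were 4 groups of 3 libraries. Input and IP libraries with the same replicate number are taken as 1 pool, which the labels do not state. The study's methods call the pools technical replicates, and p-values therefore measure the spread between these pools, which may be technical. The labels and the methods name different antibodies (Abcam and Aviva), and the labels name mRNA while the library kit is one for total RNA.

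Fc gamma receptors bind the constant part of IgG on opsonized particles and immune complexes. The activating receptors carry no signalling motif of their own and depend on the FcR gamma chain encoded by *Fcer1g*, whose immunoreceptor tyrosine-based activation motif (ITAM) is phosphorylated by Src family kinases and then recruits SYK to start phagocytosis and cytokine release. FcγRIIB, the inhibitory receptor, carries an inhibitory motif (ITIM) in its cytoplasmic tail that recruits the phosphatase SHIP1, the product of *Inpp5d*, and the balance of both kinds of receptor is known to set the threshold at which macrophages, monocytes and neutrophils respond to antibody. YTHDF2 is known to bind m6A-modified transcripts and to promote their decay.

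Both motifs are shown because they are what separates the activating from the inhibitory arm of the set. Coordinates are those of mm10 with the GENCODE M21 annotation, both genes lie on the minus strand, sequences run 5′ to 3′ along the transcript, and the capitals mark the tyrosine codons. The ITAM of *Fcer1g* covered residues 65 to 79 of 86, and its coding sequence is split by an intron within chr1:171229889-171230072. The ITIM of *Fcgr2b* covered residues 317 to 322 of 340 and lies in a single exon at chr1:170961071-170961088.
Fcer1g ITAM: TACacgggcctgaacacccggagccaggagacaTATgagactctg
Fcgr2b ITIM: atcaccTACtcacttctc

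Of the 7 genes, 5 lie on chromosome 1. *Inpp5d* (ENSMUSG00000026288.14) spans 87620312 to 87720507 on the plus strand. The other 4 on this chromosome lie close together, with *Fcgr2b* (ENSMUSG00000026656.15) at 170958617 to 170976547, *Fcgr4* (ENSMUSG00000059089.4) at 171018920 to 171029761, *Fcgr3* (ENSMUSG00000059498.13) at 171051174 to 171064935 and *Fcer1g* (ENSMUSG00000058715.11) at 171229572 to 171234365. *Fcgr1* (ENSMUSG00000015947.10) is on chromosome 3 from 96282909 to 96293969 and *Syk* (ENSMUSG00000021457.14) on chromosome 13 from 52583173 to 52648792.

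The receptors are paralogs, and *Fcgr2b* and *Fcgr3* are close enough to share reads. Their coding sequences were 86.7% identical over 782 aligned bases, against 64.1% to 68.6% for the other 5 pairs of receptors. The longest coding stretch with no difference between them had 129 bases, within chr1:170966674-170968081 for *Fcgr2b* and chr1:171054167-171057792 for *Fcgr3*, both on the minus strand and both across an intron. It is printed because a read inside it could belong to either receptor, and since no base differs no letter is in capitals.
Fcgr2b and Fcgr3: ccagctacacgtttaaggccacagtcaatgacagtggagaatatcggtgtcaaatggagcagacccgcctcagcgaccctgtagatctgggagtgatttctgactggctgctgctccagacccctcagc
Of the 50-base words in the annotated transcripts of *Fcgr3*, 9.84% also occurred in *Fcgr2b*, and 2.94% of those of *Fcgr2b* occurred in *Fcgr3*. All words of *Fcgr1*, *Fcgr4*, *Fcer1g* and *Syk*, and 99.4% of those of *Inpp5d*, occurred in no other gene. For *Fcgr2b* this share was 90.4%, and 145 genes outside the set held some of its words. How the counting treated reads that fit more than 1 gene is not given in the sources used here, so the split between *Fcgr2b* and *Fcgr3* is uncertain. Since *Fcgr3* had the higher counts, reads moved between them would change *Fcgr2b* by a larger share than *Fcgr3*. Exons of *Fcgr2b* are overlapped on the opposite strand by 155 bases of *Gm38204*, which had 0 to 30 counts per library against 5803 to 8791 for *Fcgr2b*, and the strand setting of the counting is not known.

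Between 27852948 and 42382532 reads were counted on genes per library. Of the reads aligned to 1 place, a share was assigned to no gene in the counting. Its mean was 27.0% for Ctrl and 24.7% for IR in the Input, and 42.3% for Ctrl and 51.4% for IR in the IP. Whether these reads lay in introns or between genes was not examined. Replicates varied beyond counting noise in every group and most in the IR IPs, where the variance-to-mean ratio of counts between pairs was 17.2 to 21.5, against 3.59 to 9.96 in the other groups. Levels below are counts scaled to the size of the library (CPM), with TMM factors set over the 12 libraries together, while each test was scaled on the libraries it compared. A fitted change can therefore differ from the ratio of levels beside it. With all 12 libraries in one fit the median IR change of all genes in the Input was 0.09 higher on the log2 scale. The genes called there went from 3557 higher and 4047 lower to 2621 higher and 1500 lower. That fit also tested more genes (20720 against 16914) and estimated the spread over all 4 groups, so these differences cannot be laid to the scaling alone. Library size alone in place of TMM moved the median change of all genes by -0.18 for IP over Input in Ctrl, 0.15 for IP over Input in IR, 0.31 for the change of IP/Input and 0.21 for the IP, and it turned the genes with a changed IP/Input from 1301 higher and 2881 lower to 2862 higher and 877 lower, and those changed in the IP from 1179 higher and 1896 lower to 2665 higher and 828 lower. Changes are therefore relative to the bulk of genes.

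The markers of the sorted population were present. The summed level of *Itgam* (CD11b), *Ptprc*, *Itgb2*, *Lyz2* and *Spi1* was 4797 to 4853 CPM in the Ctrl Inputs and 5725 to 5848 CPM in the IR Inputs. Of these 5, 2 were higher in IR (*Itgam* by 0.79 and *Spi1* by 0.09 on the log2 scale) and 1 was lower (*Ptprc*, -0.16). The summed level of 6 neutrophil markers was 5829 to 6642 CPM in the Ctrl Inputs and 8299 to 8947 CPM in the IR Inputs, with 4 of the 6 (*S100a8*, *S100a9*, *Csf3r* and *Retnlg*) higher in IR. The 4 monocyte markers summed to 1537 to 1644 CPM in the Ctrl Inputs and 1793 to 1893 CPM in the IR Inputs, with 3 higher and 1 lower. The 6 macrophage markers summed to 296 to 309 CPM and 312 to 330 CPM, with the 3 complement genes *C1qa*, *C1qb* and *C1qc* and *Mertk* higher and *Adgre1* and *Csf1r* lower. Markers of mast cells and basophils summed to 131 to 144 CPM in the Ctrl Inputs and 118 to 125 CPM in the IR Inputs. Those of epithelial cells summed to 122 to 129 and 93.1 to 98.0 CPM in the same order. B cell markers summed to 22.7 to 24.0 and 32.8 to 36.1 CPM, with 2 of the 5 higher and 2 lower. Dendritic cell markers (56.2 to 61.0 and 58.6 to 63.7 CPM) overlapped between conditions. Fibroblast and endothelial markers summed to 7.15 to 7.45 and 9.56 to 13.8 CPM. The T cell markers (1.65 to 1.97 and 0.671 to 1.52 CPM) and NK cell markers (0.0869 to 0.474 and 0.503 to 0.737 CPM) were lowest. No marker was under 10 counts in all libraries. In these bulk samples, fewer cells of a type and less RNA per cell cannot be told apart.

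The chain was the most abundant transcript of the set in the Inputs and *Fcgr4* the least. Per kb of annotated exon, *Fcer1g* had 548 ± 6.10 CPM per kb in the Ctrl Inputs (SD, n = 3), above 99.5% of 14507 tested protein-coding genes, and *Fcgr3* had 210 ± 4.87. They were followed by *Syk* with 47.9 ± 1.05, *Fcgr2b* with 30.7 ± 1.83, *Inpp5d* with 29.5 ± 1.49, *Fcgr1* with 16.9 ± 0.365 and *Fcgr4* with 3.22 ± 0.0881 CPM per kb. All neighbours in this order were apart in the pools except *Fcgr2b* and *Inpp5d*, whose ranges overlapped. The order was the same in the IR Inputs, where these 2 ranges did not overlap. In the IPs *Fcgr3* stood above *Fcer1g*, with 251 ± 5.41 against 217 ± 13.6 CPM per kb in Ctrl and, with overlapping ranges, 205 ± 20.9 against 186 ± 35.7 in IR, and the rest of the order was as in the Inputs.

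**Figure D1:**
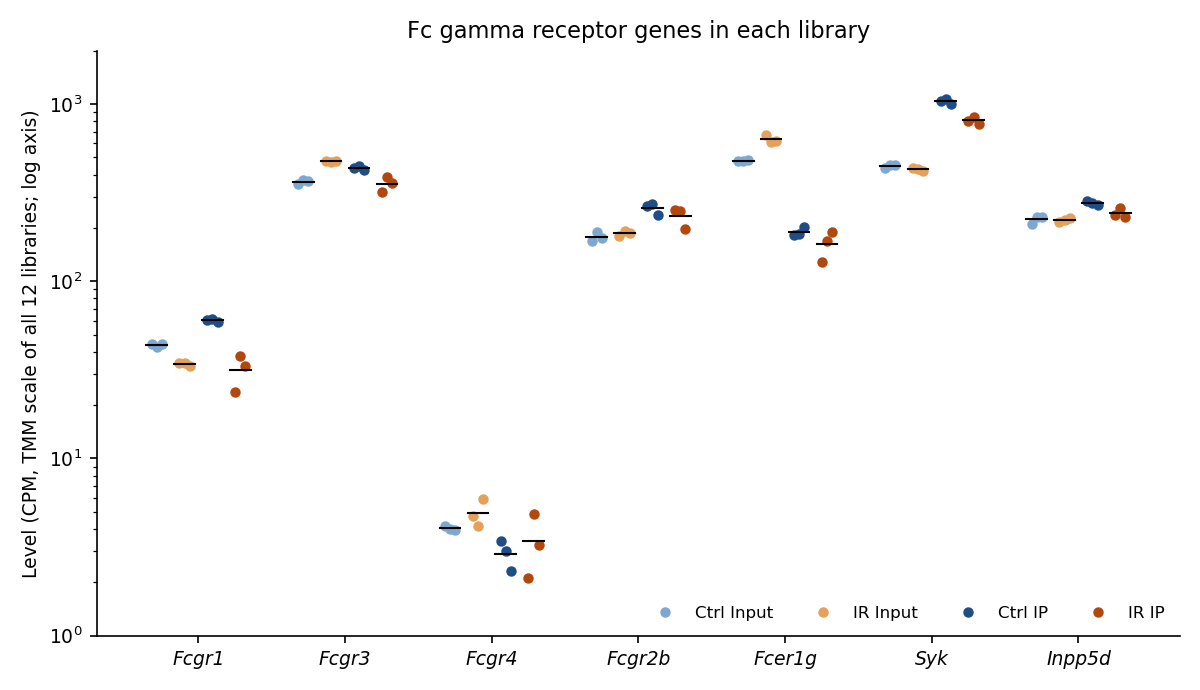
Level of each gene in each library in CPM on a log axis, with 1 point per library, 3 per group, and a black line at the group mean. *Fcer1g* goes from the Inputs (475 to 667 CPM) to the IPs (129 to 204 CPM), while *Syk* goes from 419.6 to 454 CPM in the Inputs to 773 to 1062 CPM in the IPs.

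*Fcgr1* encodes the high-affinity activating receptor for IgG (CD64). It had 44.2, 42.7 and 44.4 CPM in the Ctrl Inputs and 34.5, 34.6 and 33.4 CPM in the IR Inputs. The IPs held 60.8, 61.2 and 59.2 CPM in Ctrl and 23.9, 38.1 and 33.1 CPM in IR. All 3 IR libraries were thus below all 3 Ctrl libraries in the Input as well as in the IP, and pool 1 was the lowest of the IR IPs. In the Input the log2 change with IR was -0.44 (SE 0.056, adjusted p = 3.28e-07, edgeR), and in the IP it was -0.90 (SE 0.14, adjusted p = 2.53e-04). IP was above Input in Ctrl by 0.59 on the log2 scale (SE 0.065, adjusted p = 3.06e-07) and not detectably so in IR (0.01, 95% interval -0.28 to 0.30, adjusted p = 0.946). The change of IP/Input was -0.55 (SE 0.16, adjusted p = 0.0192). This last call rested on the full set of pools: it was -0.36 (adjusted p = 0.103) without replicate 1 of both conditions, -0.60 (adjusted p = 0.111) without replicate 3 and -0.24 (adjusted p = 0.351) with library size only. Of the 6 macrophage markers 2 were lower in the IR Inputs as well and 4 were higher, as given above, and their part in the Input change was not tested.

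*Fcgr3* encodes the low-affinity activating receptor CD16 and was the most abundant of the 4 receptors. It had 355, 371 and 368 CPM in the Ctrl Inputs and 477, 473 and 475 CPM in the IR Inputs. In the IPs the values were 434, 446 and 427 CPM in Ctrl and 318, 390.2 and 360.4 CPM in IR. Every IR library was above every Ctrl library in the Input and below every Ctrl library in the IP, so that the Input and the IP moved in opposite directions. The log2 change with IR was 0.30 in the Input (SE 0.029, adjusted p = 2.40e-09) and -0.26 in the IP (SE 0.063, adjusted p = 0.0101). IP was above Input in Ctrl by 0.38 (SE 0.037, adjusted p = 6.37e-08) and below it in IR (-0.29, SE 0.062, adjusted p = 0.00173). The change of IP/Input was -0.65 (SE 0.073, adjusted p = 1.69e-06), and it stayed past the threshold with library size only (-0.34, adjusted p = 0.00176). The fall below Input in IR was -0.22 (adjusted p = 0.0667) without replicate 3 and -0.14 (adjusted p = 0.0534) with library size only, and the fall in the IP was -0.17 (adjusted p = 0.0997) without replicate 1 and -0.05 (adjusted p = 0.599) with library size only. The neutrophil and monocyte marker sums given above were higher in the IR Inputs too, and their part in the Input change was not tested.

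*Fcgr4* encodes the activating receptor FcγRIV and was scarce, with 63 to 233 counts per library. It had 4.17, 3.998 and 3.96 CPM in the Ctrl Inputs and 4.74, 4.14 and 5.91 CPM in the IR Inputs. In the IPs it had 3.41, 3.005 and 2.31 CPM in Ctrl and 2.12, 4.85 and 3.25 CPM in IR, and the ranges overlapped between conditions in the IP and not between IP and Input in Ctrl. None of the 5 comparisons passed the threshold in edgeR or DESeq2, and none had an unadjusted p under 0.05. IP over Input was -0.35 in Ctrl (95% interval -0.82 to 0.12) and -0.41 in IR (95% interval -1.06 to 0.24), and the change of IP/Input was -0.03 (95% interval -0.85 to 0.78). The values of *Fcgr1* and *Fcgr3* lie above the interval in Ctrl and within the intervals in IR and for the change of IP/Input.

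*Fcgr2b*, the inhibitory receptor, had 168, 189 and 176 CPM in the Ctrl Inputs and 181, 193 and 188 CPM in the IR Inputs. The IPs gave 267, 272 and 237 CPM in Ctrl and 252, 250.4 and 197 CPM in IR. The ranges of Ctrl and IR overlapped in both fractions, and every IP library was above every Input library. IP was above Input in Ctrl by 0.66 on the log2 scale (SE 0.054, adjusted p = 5.86e-09) and in IR by 0.44 (SE 0.086, adjusted p = 0.00102). The change with IR was -0.003 in the Input (95% interval -0.08 to 0.07, adjusted p = 0.956), -0.12 in the IP (95% interval -0.28 to 0.05, adjusted p = 0.414) and -0.20 for IP/Input (95% interval -0.41 to 0.01, adjusted p = 0.223). Only the calls of IP over Input passed, and with library size only the changes in the IP and of IP/Input had the opposite sign (0.09 and 0.11, neither past the threshold).

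*Fcer1g*, the chain shared by the activating receptors and by the IgE receptor, was depleted from the IP. It had 476, 475 and 485 CPM in the Ctrl Inputs and 667, 610 and 617 CPM in the IR Inputs. The IP libraries had 182, 184 and 204 CPM in Ctrl and 129, 169 and 190.4 CPM in IR, so that all IP libraries were below all Input libraries and the IPs of both conditions overlapped. IP over Input was -1.21 in Ctrl (SE 0.046, adjusted p = 1.27e-13) and -1.83 in IR (SE 0.11, adjusted p = 9.65e-08). With IR the Input rose by 0.32 (SE 0.032, adjusted p = 4.71e-09), while the IP changed by -0.19 (SE 0.10, adjusted p = 0.252). The change of IP/Input was -0.60 (SE 0.12, adjusted p = 0.00130), and -0.29 (adjusted p = 0.0886) with library size only. As for *Fcgr3*, the part of the higher neutrophil and monocyte marker sums in the Input change was not tested.

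*Syk*, the kinase that binds the phosphorylated ITAM, was the member most enriched in the IP. It had 437, 454 and 454 CPM in the Ctrl Inputs and 434, 430.2 and 419.6 CPM in the IR Inputs. In the IPs it had 1043, 1062 and 1002 CPM in Ctrl and 807, 845 and 773 CPM in IR. The fitted IP level was 2.51-fold above the Input in Ctrl and 2.06-fold above it in IR, and every IR library was below every Ctrl library in the IP. IP over Input was 1.33 in Ctrl (SE 0.035, adjusted p = 1.11e-15) and 1.04 in IR (SE 0.042, adjusted p = 3.95e-09), and the change was -0.27 (SE 0.053, adjusted p = 9.60e-04). With IR the log2 change was -0.32 in the IP (SE 0.044, adjusted p = 7.11e-05) and -0.15 in the Input (SE 0.030, adjusted p = 2.49e-04). The IR changes of IP/Input and in the IP depended on the scaling: with library size only IP/Input changed by 0.04 (adjusted p = 0.672) and the IP by -0.12 (adjusted p = 0.0802). With all 12 libraries in one fit the Input changed by -0.07 (adjusted p = 0.260). That fit differs in the gene filter and the estimate of spread as well as in the scaling.

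*Inpp5d* encodes SHIP1, the lipid phosphatase that acts below the ITIM. It had 212, 231 and 231 CPM in the Ctrl Inputs and 217, 222 and 227 CPM in the IR Inputs. The IPs held 282, 277 and 268 CPM in Ctrl and 236, 259 and 230.3 CPM in IR, so that the conditions overlapped in the Input and not in the IP. IP was above Input by 0.42 in Ctrl (SE 0.043, adjusted p = 1.36e-07) and by 0.25 in IR (SE 0.054, adjusted p = 0.00203), the latter being 0.11 (adjusted p = 0.175) with no filter on low counts. The change of IP/Input was -0.15 (95% interval -0.29 to -0.01, adjusted p = 0.164). This interval is a normal approximation and is too narrow here, as the unadjusted p in edgeR was 0.051. In the Input the log2 change with IR was -0.10 (SE 0.035, adjusted p = 0.0282), which was lost without replicate 2 (-0.09, adjusted p = 0.137), without replicate 3 (-0.10, adjusted p = 0.151) and with all 12 libraries in one fit (-0.02, adjusted p = 0.877). In the IP it was -0.16 (SE 0.059, adjusted p = 0.0876).

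**Figure D2:**
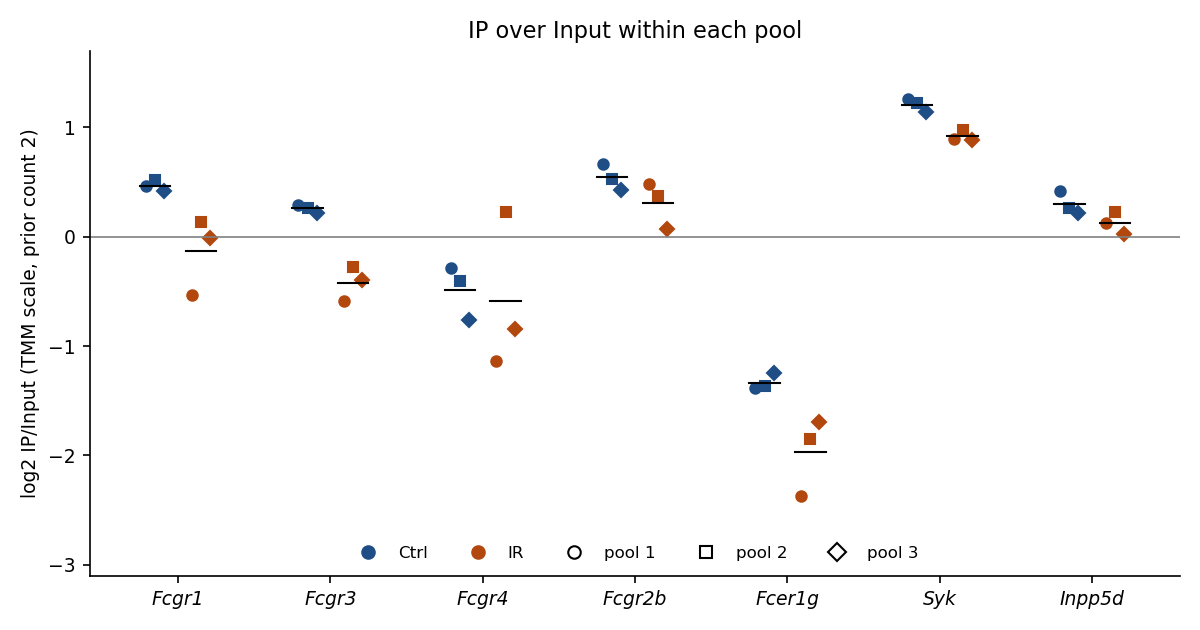
log2 IP/Input of each gene within each pool, scaled by TMM over all 12 libraries, with a prior count of 2; symbols mark the pools, colours the conditions, and black lines the mean of 3 pools. For *Fcgr1*, *Fcgr3*, *Fcer1g* and *Syk* all 3 IR pools lie below all 3 Ctrl pools, and pool 1 is the lowest IR pool for *Fcgr1*, *Fcgr3*, *Fcgr4* and *Fcer1g*.

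Within pools the same pattern held on the scale of all 12 libraries. For *Fcgr3*, log2 IP/Input was 0.29, 0.27 and 0.22 in the Ctrl pools and -0.58, -0.28 and -0.40 in the IR pools. For *Fcgr2b* it was 0.67, 0.53 and 0.43 in Ctrl and 0.48, 0.38 and 0.07 in IR, positive in every pool. The IR values of *Fcgr1* (-0.53, 0.14 and -0.01) spread over a wider range than its Ctrl values (0.46, 0.52 and 0.41). For *Fcer1g* the IR pools gave -2.37, -1.85 and -1.70 against -1.39, -1.37 and -1.25 in Ctrl. The share of reads assigned to no gene was higher in the IR IPs than in the Ctrl IPs, as given above. It was 54.1%, 50.6% and 49.4% in the IR IPs of pools 1, 2 and 3. It was thus highest in pool 1, the lowest IR pool for *Fcgr1*, *Fcgr3*, *Fcgr4* and *Fcer1g*. The part of this share in these changes was not tested.

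Counted over the set, 5 of the 7 genes were above Input in the Ctrl IP and 1 was below, where 34.1% of 17416 tested genes were called higher and 34.6% lower. In IR 3 were above and 2 below, where 32.1% of 18650 tested genes were called higher and 30.4% lower. The change of IP/Input was negative past the threshold at 4 of 7 (*Fcgr1*, *Fcgr3*, *Fcer1g* and *Syk*) and positive at 0 of 7, against 13.9% and 6.28% of 20720 genes. These genes include scarce ones, in which a change of the same size is harder to call. By size alone, 16.6% of them had a lower change than *Fcgr3*, 18.7% than *Fcer1g*, 21.2% than *Fcgr1* and 38.3% than *Syk*. DESeq2 also called 4 lower and 0 higher, an unadjusted p under 0.05 in edgeR gave 4 and 0, and library size only left 1 lower and 0 higher (*Fcgr3*). In the Input 2 rose (*Fcgr3* and *Fcer1g*) and 3 fell (*Fcgr1*, *Syk* and *Inpp5d*), against 21.0% and 23.9% of 16914 genes. In the IP 0 rose and 3 fell (*Fcgr1*, *Fcgr3* and *Syk*), against 6.12% and 9.85% of 19255 genes. DESeq2 gave the counts 0 and 3, and an unadjusted p under 0.05 gave 0 and 4. The median change of IP/Input over the set was -0.27, beside -0.08 over all tested genes, and the median IP over Input was 0.42 in Ctrl and 0.01 in IR, beside 0.02 and 0.10. The change of IP/Input also differed by transcript length. Its median was -0.28 in the shortest quintile of coding genes, which held *Fcgr3*, *Fcgr4* and *Fcer1g*. All of these comparisons share libraries, so they are not independent of each other.

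**Figure D3:**
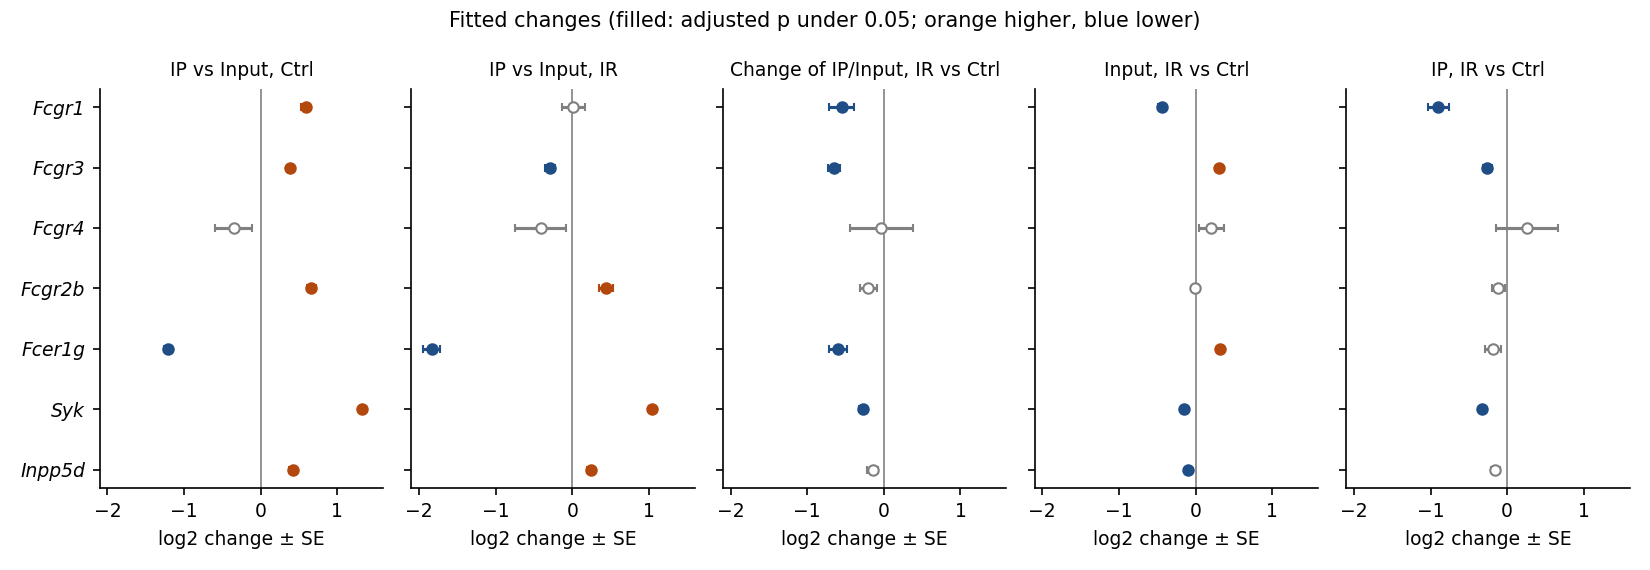
Fitted log2 change of each gene in the 5 comparisons with its standard error; filled points passed an adjusted p of 0.05 in edgeR (orange higher, blue lower) and open grey points did not. *Fcgr3* is higher in the IR Input and lower in the IR IP, *Fcgr2b* passes only for IP over Input, and *Fcgr4* passes nowhere.

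Activating and inhibitory receptors were compared within each library, where the scaling of libraries cancels. The summed level per kb of *Fcgr1*, *Fcgr3* and *Fcgr4* over that of *Fcgr2b* was 7.74, 7.15 and 7.64 in Ctrl Inputs and 9.36, 8.68 and 8.98 in IR Inputs. It was 5.99, 6.01 and 6.61 in Ctrl IPs and 4.46, 5.63 and 6.54 in IR IPs. The ratio was thus higher in every IR Input than in every Ctrl Input, by 1.20-fold on average, and lower in every IP than in every Input, while the IPs of Ctrl and IR overlapped. Within the sum *Fcgr3* made up most of the level: *Fcgr3* over *Fcgr2b* alone was 6.85 in Ctrl Inputs and 8.48 in IR Inputs, whereas *Fcgr1* over *Fcgr2b* was 0.552 and 0.408 and *Fcgr4* over *Fcgr2b* 0.105 and 0.122. The level of the ratio depends on the gene lengths, since the merged exons of *Fcgr2b* cover 5790 bases and its longest annotated transcript 3544 (1736 and 1347 for *Fcgr3*). With the longest annotated transcript of each gene in place of all exons it was 5.81 in Ctrl Inputs and 7.01 in IR Inputs, so that the level moved while the IR Inputs stayed above the Ctrl Inputs.

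**Figure D4:**
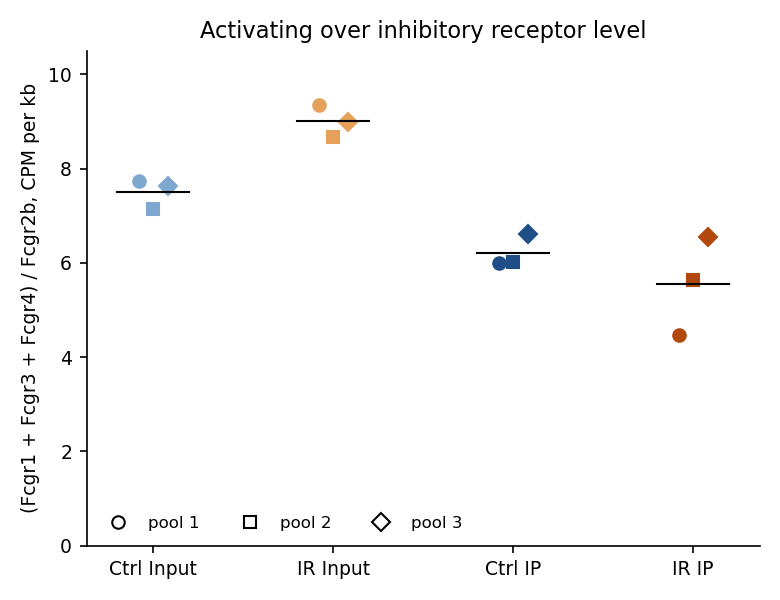
Summed CPM per kb of the 3 activating receptor genes divided by that of *Fcgr2b* in each library, with symbols for the pools and black lines at the mean of 3 libraries. The IR Inputs (8.68 to 9.36) lie above the Ctrl Inputs (7.15 to 7.74), and both lie above the IPs (4.46 to 6.61).

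The log2 IP/Input of each receptor was also set against that of *Fcgr2b* in the same pool, which is free of the scaling as well. *Fcgr3* was below *Fcgr2b* by a mean of -0.28 ± 0.083 in Ctrl and -0.73 ± 0.30 in IR (SD, n = 3), with -0.38, -0.26 and -0.21 in the Ctrl pools and -1.06, -0.65 and -0.47 in the IR pools. For *Fcgr1* the difference was -0.08 ± 0.11 in Ctrl and -0.44 ± 0.50 in IR, with overlap between the pools, and for *Fcgr4* it was -1.03 ± 0.15 and -0.90 ± 0.74. *Syk* was the only other member above *Fcgr2b*, by 0.67 ± 0.068 in Ctrl and 0.61 ± 0.20 in IR. The level per kb of *Fcer1g* was 2.61 times that of *Fcgr3* in the Ctrl Inputs and 0.867 times in the Ctrl IPs, and that of *Syk* was 1.62 and 3.05 times that of *Inpp5d*. These values describe the pools and carry no test.

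IP over Input was set against transcript length, since longer transcripts stood higher in the IP. Across genes, which are not independent replicates, Spearman's rank correlation between the length of the coding transcript and IP over Input was 0.25 in Ctrl (13032 genes) and 0.36 in IR (13795 genes), values that share library and base composition. The shortest member transcript, that of *Fcer1g* with 683 bases, was the most depleted, and that of *Syk*, the longest with 5363 bases, was the most enriched. When genes were split into quintiles by length, *Fcer1g*, *Fcgr4* (1256 bases) and *Fcgr3* (1347 bases) fell into the shortest, whose median IP over Input was -0.63 in Ctrl and -0.79 in IR. *Fcgr3* was above that median in both conditions, *Fcer1g* was below it, and 31.5% of the genes of this quintile in Ctrl and 18.5% in IR had a lower value than *Fcer1g*. *Syk* and *Inpp5d* (4937 bases) were in the longest quintile, with a median of 0.25 in Ctrl and 0.53 in IR, so that *Inpp5d* was above the median of its quintile in Ctrl and below it in IR. *Fcgr1* (2589 bases) and *Fcgr2b* (3544 bases) were above the medians of their quintiles in both conditions. The change of IP/Input rose with length as well (Spearman's rank correlation 0.23), with a median of -0.28 in the shortest quintile and 0.16 in the longest. For this change, *Fcgr1* and *Fcgr3* were among the lower values of their length quintiles, where 16.01% and 17.6% of genes had a lower one. The part of length in the results of single members was not tested.

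**Figure D5:**
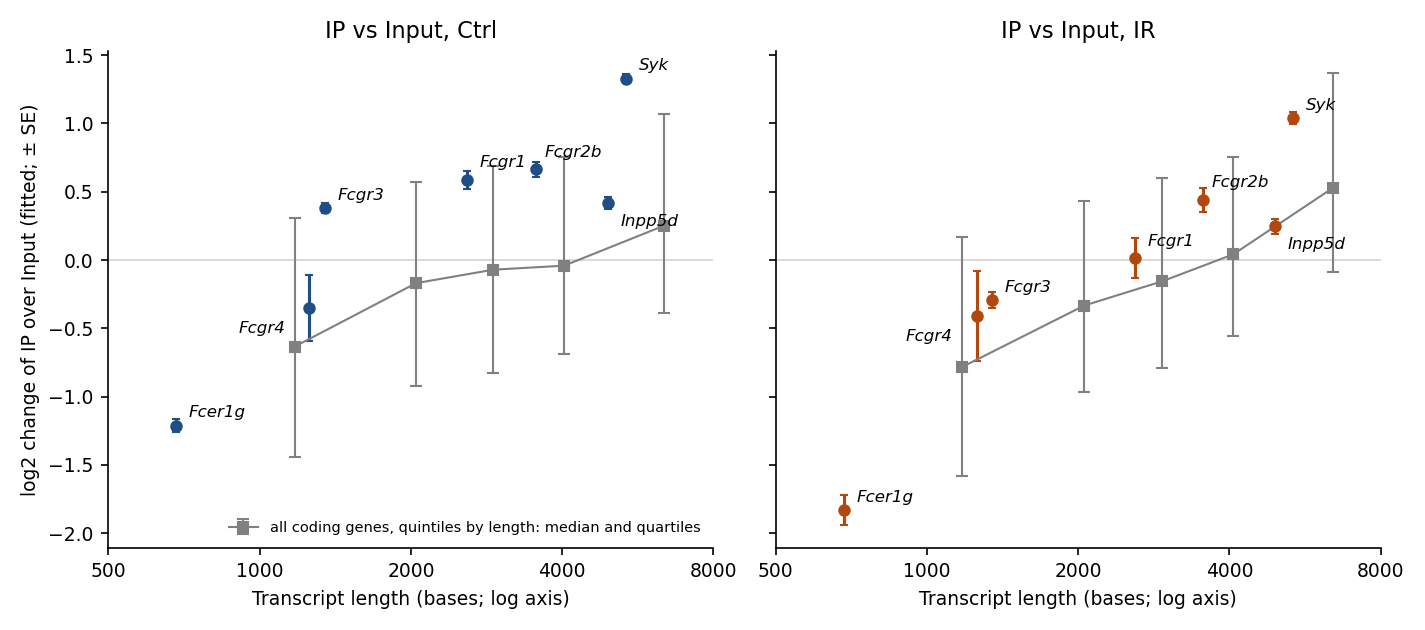
Fitted log2 change of IP over Input against the length of the coding transcript on a log axis, in Ctrl (left) and IR (right); circles are the 7 genes with their standard error, and grey squares are the medians of all tested protein-coding genes in quintiles by length, with bars from the lower to the upper quartile. The medians rise from -0.63 to 0.25 in Ctrl and from -0.79 to 0.53 in IR, and *Fcgr3* lies above and *Fcer1g* below the median of the shortest quintile.

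GGACT, the commonest form of the m6A consensus, was counted on the sense strand of the same transcripts. It occurred 7 times in *Syk*, 6 times in *Fcgr2b*, 3 times in *Fcgr4*, 2 times in *Inpp5d*, 1 time each in *Fcgr1* and *Fcgr3* and 0 times in *Fcer1g*, while 91.3% of 14496 tested protein-coding transcripts held at least 1. Per kb, *Fcgr4* (2.39), *Fcgr2b* (1.69) and *Syk* (1.31) were above the median of 1.06, and *Fcgr3* (0.742), *Inpp5d* (0.405) and *Fcgr1* (0.386) were below it. Across all genes the density had a Spearman's rank correlation of 0.09 with IP over Input in Ctrl and 0.07 in IR. A match is no measured m6A site. The study also ran m6A-seq on CD11b+ myeloid cells of tumors, and those data were not used here.

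The rest of the pathway was taken from a list of 57 signalling genes, all of which were tested. IP was above Input in Ctrl at 16 and below at 35 (median -0.29, beside 0.02 over all genes), where 34.1% and 34.6% of all tested genes were called. In IR it was above at 15 and below at 27 (median -0.21, beside 0.10), where 32.1% and 30.4% were called. The 3 highest in Ctrl were *Prkce* (protein kinase C epsilon, 3.22), *Pik3r1* (the p85 subunit of PI3K, 1.21) and *Dok3* (an inhibitory adaptor, 1.16), and the 3 lowest were the GTPases *Cdc42* (-2.19) and *Rac1* (-1.83), which drive actin at the phagocytic cup, and the adaptor *Shc1* (-1.78). In IR *Prkce* (2.53), *Pik3r1* (1.38) and the adaptor *Crkl* (1.01) were highest, and *Cdc42* (-2.30), *Was* (-1.90), the actin nucleation factor WASP, and *Rac1* (-1.75) lowest. Of the 16 genes of the actin machinery 11 were below Input and 4 above in Ctrl, and 9 below and 5 above in IR, to be read beside the same shares. Among the 7 Src family kinases and their regulators, which act just above *Syk*, 1 was above and 3 were below Input in Ctrl, and 0 and 4 in IR, with the same counts at an unadjusted p under 0.05 in IR and 1 and 4 by DESeq2. With library size only these counts were 0 and 5 in Ctrl and 2 and 3 in IR, and 3 of 7 is near the share of all genes called lower.

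With IR the IP/Input of the pathway changed in both directions, at 13 genes up and 14 down (median -0.01, beside -0.08), where 6.28% and 13.9% of all tested genes were called. Among the Vav exchange factors *Vav3* (1.88) and *Vav2* (0.79) rose, as did the PI3K adaptor *Pik3ap1* (1.37), and *Vav1* (-0.61) fell together with *Prkce* (-0.67) and the PI3K catalytic subunit *Pik3cd* (-0.53). In the Input 12 rose and 26 fell (median -0.07, beside 0.01), where 21.0% and 23.9% of all genes were called, so that the 12 of 57 are at the background. The changes were led by *Prkce* (0.62), *Src* (0.41) and the Arp2/3 subunit *Arpc3* (0.39) upwards and by *Pik3ap1* (-1.13), *Vav3* (-0.65) and the phosphatase SHP-2 gene *Ptpn11* (-0.61) downwards. In the IP 7 rose, with *Vav3* (1.32) and *Src* (0.95) among them, and 11 fell, with *Vav1* (-0.55) and *Pik3ca* (-0.34) among them (median -0.05, beside 0.06), where 6.12% and 9.85% of all genes were called. These directions are relative to the bulk of genes: with library size only, 28 genes of the list rose and 4 fell in IP/Input (median 0.30), 21 rose and 2 fell in the IP, and *Pik3ca* was no longer called there. With all 12 libraries in one fit 12 rose and 12 fell in the Input, without *Src*.

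Of 13 other Fc receptors 12 were tested for the change of IP/Input, and 0 passed in either direction in edgeR, in DESeq2 or at an unadjusted p under 0.05, with a median of -0.11. Of all tested genes 13.9% were called lower and 6.28% higher, so that 0 of 12 is near the background. Some of the 12 were scarce, such as *Fcrl1* with group means of 2.78 to 5.66 CPM, which limits this count. Whether their change of IP/Input differed from that of the Fc gamma receptor genes was not tested. IP was above Input at 1 and below at 4 of the 12 in Ctrl, and at 2 and 4 in IR. *Ms4a2*, the beta chain of the IgE receptor, was below Input in Ctrl (-1.91) and IR (-1.78), like *Fcgrt* (-0.83 and -0.90), the neonatal Fc receptor, and *Fcrls* (-1.09 and -1.25). In the Input *Fcrl1* (0.57) and *Fcgrt* (0.20) rose and *Ms4a2* (-0.36) fell, of which none passed with all 12 libraries in one fit. Among 18 receptors and adaptors with ITAM or ITIM signalling, IP/Input fell with IR at 10 and rose at 1, *Cd33* (0.31), with a median of -0.41, where 13.9% and 6.28% of all tested genes were called, and with library size only it fell at 3 and rose at 2. The largest falls were at *Siglech* (-1.07, and -0.76 with library size only, adjusted p = 0.0551), *Cd300lf* (-0.67) and *Clec5a* (-0.54). *Tyrobp*, which encodes DAP12, the other ITAM chain of myeloid cells, was depleted from the IP like *Fcer1g*, by -2.42 in Ctrl and -2.76 in IR, and *Sirpa*, an ITIM receptor that curbs phagocytosis, was enriched (1.49 and 0.99). Of the 9 receptors listed as ITIM bearing, *Cd33* among them, 5 were above Input in Ctrl and 4 below, where 34.1% and 34.6% of all genes were called. In IR these counts were 3 and 5, where 32.1% and 30.4% were called. Whether each listed receptor carries the motif in the mouse was not examined.

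The genes whose pattern over the 12 libraries was most like that of each receptor were found by Pearson's r of log2 CPM among protein-coding genes with a mean of at least 10 CPM, as a description, since the libraries share groups and scaling. For *Fcgr1* they were *Nop14* (0.98), *Mbd3* (0.96) and *Itga1* (0.96), for *Fcgr3* *Wdr89*, *Naa35* and *Hras* (each 0.96), for *Fcgr4* *Eipr1* (0.92), *Ubap1* (0.91) and *Leng1* (0.90), and for *Fcgr2b* *Ist1* (0.97), *Slc2a1* (0.96) and *Gmeb2* (0.96). Among the members themselves *Fcgr2b* was closest to *Syk* (0.92) and *Inpp5d* (0.89) and farthest from *Fcer1g* (-0.85), and its r with *Fcgr3* was 0.02. The r of *Fcgr3* with *Fcer1g* was 0.42 and with *Fcgr1* 0.31.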

How the data were processed

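RIP-seq libraries were made from CD11b+ myeloid cells of MC38 tumors in WT mice, as an Input and an IP library from each of 3 pools in Ctrl and 3 in IR. The authors trimmed reads with Trimmomatic 0.39, aligned them to mm10 with HISAT and deposited raw counts per gene made with HTSeq on GENCODE M19. The strand setting of the counting and its handling of reads with several matches are not given in the sources used here. The summary lines for reads without a gene were left out of library sizes and tests, and their shares are given with the library totals. Of the gene IDs, 97.8% were found in GENCODE M21 under the same version and 99.9% when versions were ignored, and lengths, positions and sequences come from that annotation.

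Counts were tested with edgeR 4.0.16 (R 4.3.3, quasi-likelihood F-test, TMM) over all genes that reached 10 counts in 3 or more of the libraries compared, with Benjamini-Hochberg adjustment over all tested genes and a threshold of 0.05. The standard error is the log2 change divided by the square root of F. Intervals are 95% by a normal approximation, and are narrower than intervals matched to the F-test would be. IP was compared with Input within Ctrl and within IR, the change of IP/Input was the interaction over all 12 libraries, and IR was compared with Ctrl in each fraction. Levels are CPM scaled by TMM over the 12 libraries together, per kb of merged exons where genes are compared, and log2 IP/Input per pool used a prior count of 2. The code was tested on simulated data. Alternatives were DESeq2 1.42.0, its size factors in edgeR, library size only, no filter, protein-coding genes only, a replicate block, all 12 libraries in one fit, leaving out each replicate number and, for the receptor ratio, other gene lengths. Of the 7 genes the depth limits the precision most for *Fcgr4*, which had 63 to 233 counts per library.

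The methods describe an Input kept from the lysate of each IP, but no source used here ties the replicate numbers to lysates. Values of IP/Input per pool take libraries of the same number together.

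The 7 genes and the lists were chosen with earlier results of these data known. All 7 genes are named, and from each list the 3 genes with the largest change in each direction past the threshold with a mean of at least 100 counts were eligible to be named. Some genes that this rule gives are not reported here. Marker genes named beside a count are those that passed the test.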

Additional observations from a re-analysis of the deposited data

Results flagged for a closer look

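The IP/Input of 4 genes differed between Ctrl and IR by a direct test of the difference, the interaction of fraction and condition in edgeR over all 12 libraries. The log2 change was -0.55 for *Fcgr1* (SE 0.16, adjusted p = 0.0192), -0.65 for *Fcgr3* (SE 0.073, adjusted p = 1.69e-06), -0.60 for *Fcer1g* (SE 0.12, adjusted p = 0.00130) and -0.27 for *Syk* (SE 0.053, adjusted p = 9.60e-04). All 3 IR pools lay below all 3 Ctrl pools for each of the 4, on the TMM scale. With library size only, *Fcgr3* alone of the 4 stayed past the threshold. Single libraries were not tested for lying apart, since every group has 3.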

How the results depend on the processing

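Of 343 recomputed values for the 35 results of single genes, 304 kept their direction and their side of the threshold. Library size only gave 1 gene in place of 2 below Input in IR, 1 in place of 4 with a lower IP/Input in IR, and 1 in place of 3 lower in the IP. All 12 libraries in one fit gave 1 in place of 3 lower in the Input. Without 1 replicate number these counts were 1 to 2, 3 to 4, 2 to 3 and 2 to 3. With the longest transcript as length, the log2 ratio of activating to inhibitory level was 2.54 in the Ctrl Inputs (2.91 with all exons) and 2.81 in the IR Inputs (3.17).

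Reversals were of values that passed no threshold, with the exception of *Syk*. With library size only the change of IP/Input was 0.11 for *Fcgr2b*, 0.27 for *Fcgr4*, 0.045 for *Syk* and 0.16 for *Inpp5d*, and the change in the IP was 0.091 for *Fcgr2b*, 0.015 for *Fcer1g* and 0.050 for *Inpp5d*. IP over Input of *Fcgr1* in IR was -0.12 with no filter, -0.010 with the replicate block, -0.040 with all 12 libraries in one fit and -0.056 to 0.25 without 1 replicate number. The change of IP/Input of *Fcgr4* was 0.023 with DESeq2 and with its size factors, 0.043 with protein-coding genes only, and -0.42 to 0.32 without 1 replicate number (0.051 without replicate 3), and its change in the IP was -0.037 to 0.66 without 1 replicate number. The Input change of *Fcgr2b* was 0.00053 with the size factors of DESeq2, 0.00058 with DESeq2, 0.0061 with protein-coding genes only, 0.076 with all 12 libraries in one fit and -0.016 to 0.0078 without 1 replicate number. The settings with library size only keep the shift of all genes that TMM removes. For the other reversals the cause was not tested.

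Libraries of the same number did not deviate together from their group means (mean r of IP with Input -0.0033 in Ctrl and -0.018 in IR over 13527 genes), so the numbers are not shown to pair them. With the number within each condition as a replicate block the change of IP/Input was -0.57 for *Fcgr1* (adjusted p = 0.00877), -0.65 for *Fcgr3*, -0.61 for *Fcer1g* and -0.27 for *Syk*, and the block changed no call of IP over Input or of IP/Input. With the replicate number as a block between Ctrl and IR, *Inpp5d* was lower in the IP (-0.16, adjusted p = 0.0415), as with all 12 libraries in one fit (-0.17, adjusted p = 0.0204), and *Fcer1g* was so with no filter (-0.22, adjusted p = 0.0431).

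The methods call the pools technical replicates, and each held cells of several mice, so the spread between single animals was not measured. YTHDF2 binding was measured by 1 antibody, with no IgG or knockout control among the libraries used here. RNA levels do not measure receptor protein on the cell surface.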
